A study of Mus musculus with 5 samples.

Results

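The transcripts examined were those of 10 mouse genes that make hypusine on the translation factor eIF5A and that make, break down or control the polyamines from which hypusine is built. They were chosen by name, for their place in the pathway, among 23771 genes with values for metastatic cancer cells of the lung. Eif5a, Dhps and Dohh form the hypusination branch. Odc1, Srm, Sms and Amd1 encode enzymes of polyamine synthesis, Sat1 an enzyme of breakdown, and Oaz1 and Azin1 the control of ornithine decarboxylase. All 10 passed a minimum of detection: a UMI (a unique molecular identifier, which marks 1 captured transcript) in 10% or more of the cancer cells of the TSF or the CM library. In all 10201 genes passed it.

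Lungs came from female BALB/c mice that were injected into a vein 3 times per week for 3 weeks, from an age of 6 weeks, with control medium (CM, kept without tumor tissue) or with tumor-secreted factors (TSF), medium that pieces of 4T1 mammary tumors had conditioned. All mice then received 25000 4T1 cells, a mouse mammary carcinoma line, here expressing the surface reporter CD90.1, by the same route. Lungs were taken at day 11 (mice of 10 weeks) or day 16 (mice of 11 weeks), and the lungs of 3 mice were pooled in each group. Gene values of the cancer cells were used for the day 16 groups only, with 139 cells in the TSF library and 29 cells in the CM library. The day 11 libraries, 1 of CM and 2 of TSF, gave no values for these genes here. Each group was 1 library, so there was no replicate check and no test between groups, and all intervals cover counting error only, not the difference between mice. Cancer cells given into a vein reach the lung without a primary tumor, which limits the groups as a model of spread from the breast.

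Hypusine is an amino acid formed after translation on a single lysine of eIF5A. Deoxyhypusine synthase (Dhps) transfers the aminobutyl group of spermidine to that lysine, and deoxyhypusine hydroxylase (Dohh) completes it. Hypusinated eIF5A helps ribosomes past sequences at which peptide bonds form slowly, such as runs of proline. Ornithine decarboxylase (Odc1) makes putrescine, and spermidine synthase (Srm) and spermine synthase (Sms) add aminopropyl groups that come from decarboxylated S-adenosylmethionine, the product of Amd1. Antizyme (Oaz1) sends ornithine decarboxylase to the proteasome, and antizyme inhibitor (Azin1) binds antizyme in its place.

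The codon that carries the modification is shown because all 3 hypusination genes act at it. In the GENCODE M21 transcripts, codon 50 counted from the start codon was the lysine codon AAG in 12 of 13 coding transcripts of Eif5a, a gene at chr11:69916714-69921958 on the minus strand of GRCm38. The paralog Eif5a2 (chr3:28781276-28798846, plus strand) has the same codon. The windows run from codon 46 to codon 54, 5′ to 3′ in the sense of the transcript, with codon 50 in capitals.
Eif5a: tcgaagactggcAAGcatggccatgcc
Eif5a2: tccaagactgggAAGcatggtcatgcc
The windows differ at 3 of 27 bases, none of them in the capitals.

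A second sequence marks where polyamines act on their own control. Antizyme is made only when ribosomes shift frame at an early stop codon, and polyamines favour that shift. The codon before the stop and the stop itself are in capitals, as read from a coding transcript of GENCODE M21 (gene at chr10:80826656-80829290, plus strand).
Oaz1: cctcggtggtgcTCCTGAtgtccctcaccc

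Among the hypusination genes, Eif5a and Dhps were lower by less than 1.5-fold in TSF and Dohh was 1.37-fold higher. Values are mean CP10k, the UMIs of a gene per 10000 UMIs of a cell, averaged over the cells of a library. Differences are given as log2 of the TSF over the CM value after 0.1 was added to both, which understates the change of low genes. Odc1, Amd1 and Azin1 were lower in TSF by more than 1.5-fold, 3 of the 10 members, where 17.3% of all 10201 genes were. With so few members that count does not set them apart from other genes, and Amd1 and Azin1 do not pass the limit in every setting given below. No member was higher by more than 1.5-fold, against 7.33% of all genes. Of the 10 members, 2 were above 0 and 8 were below 0, and 40.3% of all genes were above 0. The members' median log2 difference was -0.21, and the median of all genes was -0.13. By role, the hypusination genes ran from -0.17 to 0.40 with a median of -0.02, and the 4 synthesis genes from -0.81 to -0.07 with a median of -0.47, without a test of that difference.

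**Figure D1:**
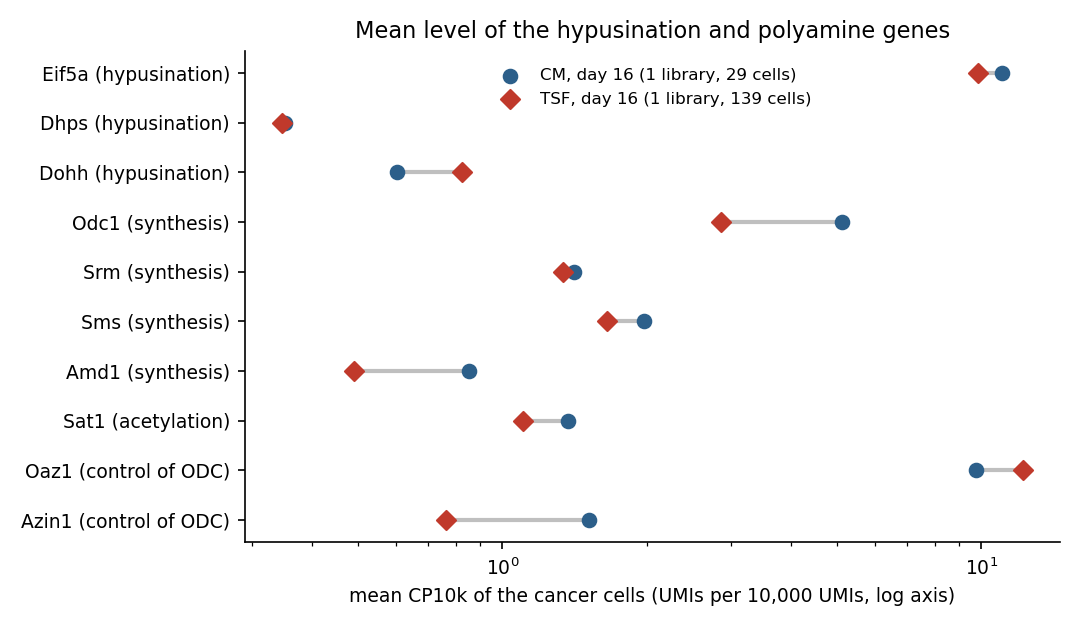
Mean CP10k (log axis) of the 10 genes in the cancer cells of the CM library (circles) and the TSF library (diamonds) of day 16, with 1 library per group and no error bar. Odc1, Amd1 and Azin1 are lower in TSF (0.764 against 1.52 CP10k for Azin1), Dohh and Oaz1 are higher, and the symbols of Dhps and Srm nearly coincide.

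Eif5a itself had a mean of 9.83 CP10k in TSF and 11.1 CP10k in CM, a log2 difference of -0.17. It had a UMI in 137 of 139 TSF cells (98.6%, exact 95% Clopper-Pearson confidence interval, CI, 94.9 to 99.8%) and in all 29 CM cells (88.1 to 100%). The transcript was thus detected in nearly every cancer cell of both libraries. Of all genes, 46.6% had a lower log2 difference, so Eif5a lay near the middle of their order. The genes with levels nearest to Eif5a in log2(CP10k + 0.1) over the 2 libraries were mt-Nd1 (Euclidean distance 0.0378), Tubb5 (0.0634) and Gpx1 (0.136). Eif5a2 was found in 1 cell of each library.

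Dhps (chr8:85071757-85075162, plus strand), which starts the modification, had a mean of 0.346 CP10k in TSF and 0.351 CP10k in CM, a log2 difference of -0.02. A UMI was seen in 78 of 139 TSF cells (56.1%, CI 47.5 to 64.5%) and in 15 of 29 CM cells (51.7%, CI 32.5 to 70.6%). The ratio of these shares was 1.08, with an interval from 0.619 to 2.03. That interval treats the counts of positive cells as Poisson, so it is too wide for shares this large. No difference of Dhps was detectable at this depth, and equal shares were not shown.

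Dohh, the enzyme of the second step, had a mean of 0.825 CP10k in TSF and 0.602 CP10k in CM. The level was 1.37-fold higher in TSF, a log2 difference of 0.40, and 85.9% of all genes had a lower difference. The shares of cells with a UMI were close, at 103 of 139 TSF cells (74.1%, CI 66.0 to 81.2%) and 21 of 29 CM cells (72.4%, CI 52.8 to 87.3%). In the cells with a UMI, the mean was 1.11 CP10k in TSF and 0.831 CP10k in CM. The ratio of the shares was 1.02, so the shares differed less than the means did. Its interval, computed as for Dhps and too wide for the same reason, ran from 0.636 to 1.72. The difference of the means, 0.223 CP10k, was smaller than the 0.354 CP10k that 1 UMI adds in the shallowest CM cell. When the level was instead estimated from the share of positive cells and their UMI totals, Dohh was 0.587 in TSF and 0.679 in CM per 10000 UMIs, a log2 difference of -0.21, so the direction of Dohh depended on the measure. The genes nearest to Dohh over the 2 libraries were Svbp (0.0226), Nol12 (0.0348) and Snf8 (0.0382).

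Reads of Dohh are also uncertain in origin. GENCODE M21 places Dohh at chr10:81384428-81388352 and a second protein-coding gene, Gm48551, at chr10:81384466-81391560, both on the plus strand of GRCm38. Of the 50-base windows of the Dohh transcript, 66.2% also occur in Gm48551 transcripts, and RefSeq gives both genes the same start. The libraries were read from the 5′ end of transcripts, so UMIs from the shared first part cannot be assigned to either gene by sequence. The gene table used has no value under the name Gm48551, and whether the authors' reference held that gene is not given in the sources used here, so the Dohh value may count transcripts of both. The promoter is shown for that reason, from 250 bases before to 50 bases after the start (chr10:81384184-81384483, plus strand, GRCm38.p6, RefSeq), with an E-box in capitals.
Dohh: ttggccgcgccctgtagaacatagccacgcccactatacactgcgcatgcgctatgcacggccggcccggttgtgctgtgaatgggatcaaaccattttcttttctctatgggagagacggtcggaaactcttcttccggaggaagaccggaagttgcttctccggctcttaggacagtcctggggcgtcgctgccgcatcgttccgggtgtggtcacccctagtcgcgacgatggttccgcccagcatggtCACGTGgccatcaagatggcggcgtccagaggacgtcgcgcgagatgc
The E-box, CACGTG, is the palindromic site that MYC and related factors bind. It occurs in 7.15% of all 32817 promoter windows of this length. Of the 10 members, 8 had a window in the table, and Eif5a (6 windows), Dohh (1) and Sms (2) had an E-box in at least 1 of them. Counted by window, as the background is, 5 of the members' 14 windows held one. The Eif5a windows chr11:69921337-69921636 and chr11:69921226-69921525 overlap and hold the same E-box, which was counted in both.

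Odc1, the entry enzyme of polyamine synthesis, had a mean of 2.86 CP10k in TSF and 5.11 CP10k in CM. The level was 1.78-fold higher in CM, a log2 difference of -0.81, and 8.67% of all genes had a lower value. A UMI was seen in 123 of 139 TSF cells (88.5%, CI 82.0 to 93.3%) and in 28 of 29 CM cells (96.6%, CI 82.2 to 99.9%). In the cells with a UMI, the mean was 3.24 CP10k in TSF and 5.29 CP10k in CM. For Odc1 both the share and the level in positive cells were lower in TSF, although the intervals of the shares overlapped. The level estimated from the shares was 1.15 per 10000 UMIs in TSF (interval 0.805 to 1.76) and 3.97 in CM (interval 1.05 to 37.8), a log2 difference of -1.79. Of the 50-base windows of the Odc1 transcript, 42.2% also occur in transcripts of other loci, which makes part of its reads uncertain. Myc, a transcription factor known to act on the Odc1 promoter, had 1.16 CP10k in TSF and 2.47 CP10k in CM, a log2 difference of -1.02.

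Amd1 supplies the aminopropyl donor to both synthases. It had a mean of 0.490 CP10k in TSF and 0.851 CP10k in CM, a log2 difference of -0.69, and 12.8% of all genes had a lower value. The shares went the other way by a small amount, with a UMI in 89 of 139 TSF cells (64.0%, CI 55.5 to 72.0%) and in 18 of 29 CM cells (62.1%, CI 42.3 to 79.3%). In the cells with a UMI, the mean was 0.765 CP10k in TSF and 1.37 CP10k in CM. The lower mean of Amd1 in TSF thus lay in the amount per positive cell. Amd1 was no longer past 1.5-fold with a pseudocount of 1 (-0.31), after centring on all genes (-0.56) or as a level from the share (-0.16). Amd1 shares 86.1% of its 50-base windows with Amd2, a near copy without introns, so their reads are hard to tell apart. Amd2 had a UMI in 24 of 139 TSF cells (17.3%) and in 4 of 29 CM cells (13.8%), with a log2 difference of -0.05.

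The promoters of Odc1 and Amd1 are shown because both were among the 3 lower genes. Each window spans 250 bases before to 50 bases after the RefSeq start, at chr12:17544623-17544922 on the plus strand for Odc1 and at chr10:40302139-40302438 on the minus strand for Amd1 (GRCm38.p6). Capitals mark TGACG or its reverse complement CGTCA, the core of the cAMP response element.
Odc1: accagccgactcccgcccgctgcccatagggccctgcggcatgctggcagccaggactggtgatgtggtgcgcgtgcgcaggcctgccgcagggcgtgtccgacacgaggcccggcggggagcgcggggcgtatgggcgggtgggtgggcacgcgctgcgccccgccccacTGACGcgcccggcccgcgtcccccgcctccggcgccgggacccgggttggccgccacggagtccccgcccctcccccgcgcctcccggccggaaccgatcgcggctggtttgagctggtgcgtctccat
Amd1: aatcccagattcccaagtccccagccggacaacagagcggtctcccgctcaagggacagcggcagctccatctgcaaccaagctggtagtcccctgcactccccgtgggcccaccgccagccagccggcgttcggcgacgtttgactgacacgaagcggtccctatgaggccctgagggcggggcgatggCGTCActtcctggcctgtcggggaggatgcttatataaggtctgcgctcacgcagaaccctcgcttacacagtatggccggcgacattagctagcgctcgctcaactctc
The core was searched on both strands and occurs in 20.8% of all promoter windows, and it lies within the full element. It was found in 6 of the members' 14 windows, which belong to Eif5a, Odc1, Amd1 and Oaz1, and 3 of these 6 are windows of Eif5a. The overlapping Eif5a windows named above hold the same core, which was counted in both. The full element, TGACGTCA, was found in none of the 14 windows and in 1.79% of all windows. Azin1 had no window in the table.

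The synthases that use the donor were closer between the libraries. Srm (chr4:148591503-148594993, plus strand), which makes spermidine, had a mean of 1.34 CP10k in TSF and 1.41 CP10k in CM, a log2 difference of -0.07. A UMI of Srm was seen in 109 of 139 TSF cells (78.4%, CI 70.6 to 84.9%) and in 21 of 29 CM cells (72.4%, CI 52.8 to 87.3%). Sms (chrX:157443855-157492287, minus strand), which turns spermidine into spermine, had a mean of 1.65 CP10k in TSF and 1.98 CP10k in CM, a log2 difference of -0.25. A UMI of Sms was seen in 121 of 139 TSF cells (87.1%, CI 80.3 to 92.1%) and in 26 of 29 CM cells (89.7%, CI 72.6 to 97.8%). Neither synthase was past 1.5-fold in mean CP10k. As a level from the share, Sms was past it, with a log2 difference of -0.70. Of the 50-base windows of Sms, 28.7% also occur in the pseudogene Sms-ps, against 2.41% of those of Srm with any other gene.

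Sat1 (chrX:155213132-155216449, minus strand) acetylates spermidine and spermine, which marks them for export or for oxidation back to shorter polyamines. It had a mean of 1.10 CP10k in TSF and 1.37 CP10k in CM, a log2 difference of -0.29. The share of cells with a UMI was on the other side, at 110 of 139 TSF cells (79.1%, CI 71.4 to 85.6%) and 20 of 29 CM cells (69.0%, CI 49.2 to 84.7%). As a level from the share, Sat1 had a log2 difference of 0.26, so its direction, like that of Dohh, depended on the measure.

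Antizyme and its inhibitor lay on opposite sides. Oaz1 had a mean of 12.2 CP10k in TSF and 9.77 CP10k in CM, a log2 difference of 0.32. It had a UMI in 137 of 139 TSF cells and in all 29 CM cells. Of all genes, 81.8% had a lower difference than Oaz1. Azin1 (chr15:38487427-38519266, minus strand) had a mean of 0.764 CP10k in TSF and 1.52 CP10k in CM. The Azin1 level was 1.99-fold higher in CM, a log2 difference of -0.90 and the lowest of the 10 members, and 6.63% of all genes had a lower value. A UMI of Azin1 was seen in 102 of 139 TSF cells (73.4%, CI 65.2 to 80.5%) and in 23 of 29 CM cells (79.3%, CI 60.3 to 92.0%). In the cells with a UMI, Azin1 had 1.04 CP10k in TSF and 1.91 CP10k in CM. Azin1 was within 1.5-fold with a pseudocount of 1 (-0.51). None of its 50-base windows occurs in another gene's transcripts, whereas 52.2% of those of Oaz1 also occur in the pseudogene Oaz1-ps.

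**Figure D2:**
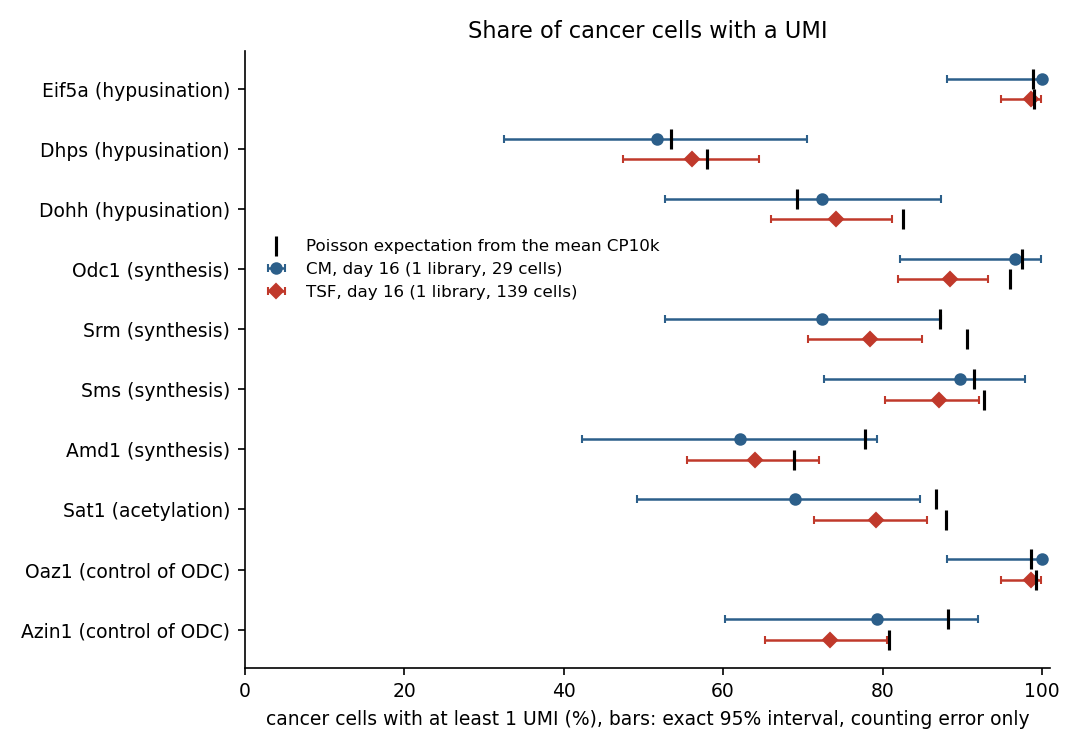
Share of cancer cells with at least 1 UMI of each gene in the CM library (circles, 29 cells) and the TSF library (diamonds, 139 cells), with exact 95% Clopper-Pearson intervals as bars and, as black ticks, the share that Poisson counting gives at the mean CP10k and the cells' UMI totals. The intervals of the 2 libraries overlap for all 10 genes, and the ticks lie above the observed share for all 10 genes in TSF and for 7 in CM. Neither count was made for all genes.

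The intervals of the shares of cells with a UMI overlapped between the libraries for every member. How many of all genes have intervals that lie apart was not counted, and the CM intervals are wide. The overlap therefore does not set the members apart from other genes. The share was larger in TSF for 5 of the 10 members and for 49.1% of all genes. Each share was also set against the one that Poisson counting gives at the library's mean CP10k. In TSF the observed share was below this value for all 10 members, by 12.2 percentage points for Srm and by 8.42 points for Dohh. In CM it was below it for 7 members, by 17.8 points for Sat1, 15.7 points for Amd1 and 14.7 points for Srm. The CM share of Dohh was above it (72.4% observed, 69.2% expected). This comparison was not made for all genes, so the counts do not set the members apart from other genes. The expected share of Sat1 lay above the interval of the observed share in both libraries. In TSF those of Srm (90.6% expected), Dohh (82.5%), Odc1 (96.0%), Sms (92.7%) and Azin1 (80.8%) did so too. The level from the share assumes Poisson counting, so for these genes it is uncertain. For Amd1 the expected share lay within the interval in both libraries (77.8% expected in CM and 68.9% in TSF), as did that of Srm in CM (87.1% expected). In droplet data free RNA adds UMIs to all cells, and their level in cells that do not express them was not analysed here. As levels from the share, which can be given for 8 members, 3 were lower in TSF by more than 1.5-fold (Odc1, Sms and Azin1) against 31.4% of 9975 genes, and 0 were higher against 13.8%.

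Beyond the members, 22 of 30 other genes of the pathway were seen in at least 10% of cells. Of these, 5 were above 0 and 17 below, with a median log2 difference of -0.20. Past 1.5-fold, 2 were higher in TSF and 5 lower, beside the 7.33% and 17.3% of all genes given above. Azin2, a second antizyme inhibitor, was among the higher genes, at 0.283 CP10k in TSF and 0.0830 CP10k in CM, with a UMI in 51 TSF cells and 4 CM cells and a log2 difference of 1.06. Azin2 and Azin1, which share a role, thus differed in opposite directions in mean CP10k. Xpo4, the exportin that carries eIF5A out of the nucleus, had 0.218 CP10k in TSF and 0.0828 CP10k in CM, a log2 difference of 0.80.

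The 5 lower genes included 2 that lie before the aminopropyl donor or recycle its by-product. Mat2a, which makes S-adenosylmethionine, the substrate of Amd1, had 0.960 CP10k in TSF and 1.96 CP10k in CM, a log2 difference of -0.96. Mri1, an isomerase of the methionine salvage route, had 0.117 CP10k in TSF and 0.340 CP10k in CM, a log2 difference of -1.02. Slc3a2, the heavy chain of several amino acid transporters, had 0.802 CP10k in TSF and 2.09 CP10k in CM, a log2 difference of -1.28. Oat, which links ornithine to glutamate and proline metabolism, had a difference of -0.63, and Myc is given above. The differences of the means of Mri1 (0.223 CP10k) and Oat (0.335 CP10k) were also below the 0.354 CP10k of 1 UMI in the shallowest CM cell. Mtap, which clears the by-product of Srm and Sms, was within 1.5-fold at 5.20 CP10k in TSF and 7.05 CP10k in CM (-0.43). The oxidases Smox (-0.06) and Paox (0.12), the antizyme paralog Oaz2 (-0.23) and the eIF5A acetylase and deacetylase genes Kat2b (-0.52) and Sirt2 (-0.40) were also within it. As levels from the share, Slc3a2 (-0.36), Mat2a (-0.48) and Oat (-0.41) were within 1.5-fold. Mri1 (-1.03) and Myc (-1.10) stayed past it, and Mat2b (-0.79) and Kat2b (-1.17) were past it on that measure only. In all, that measure put 3 other pathway genes higher and 4 lower, beside 13.8% and 31.4% of 9975 genes. Arg1, Agmat and Mat1a had a UMI in 0 of 139 TSF cells, which allows a share of up to 2.16%, and in 0 of 29 CM cells, which allows up to 10.3%.

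**Figure D3:**
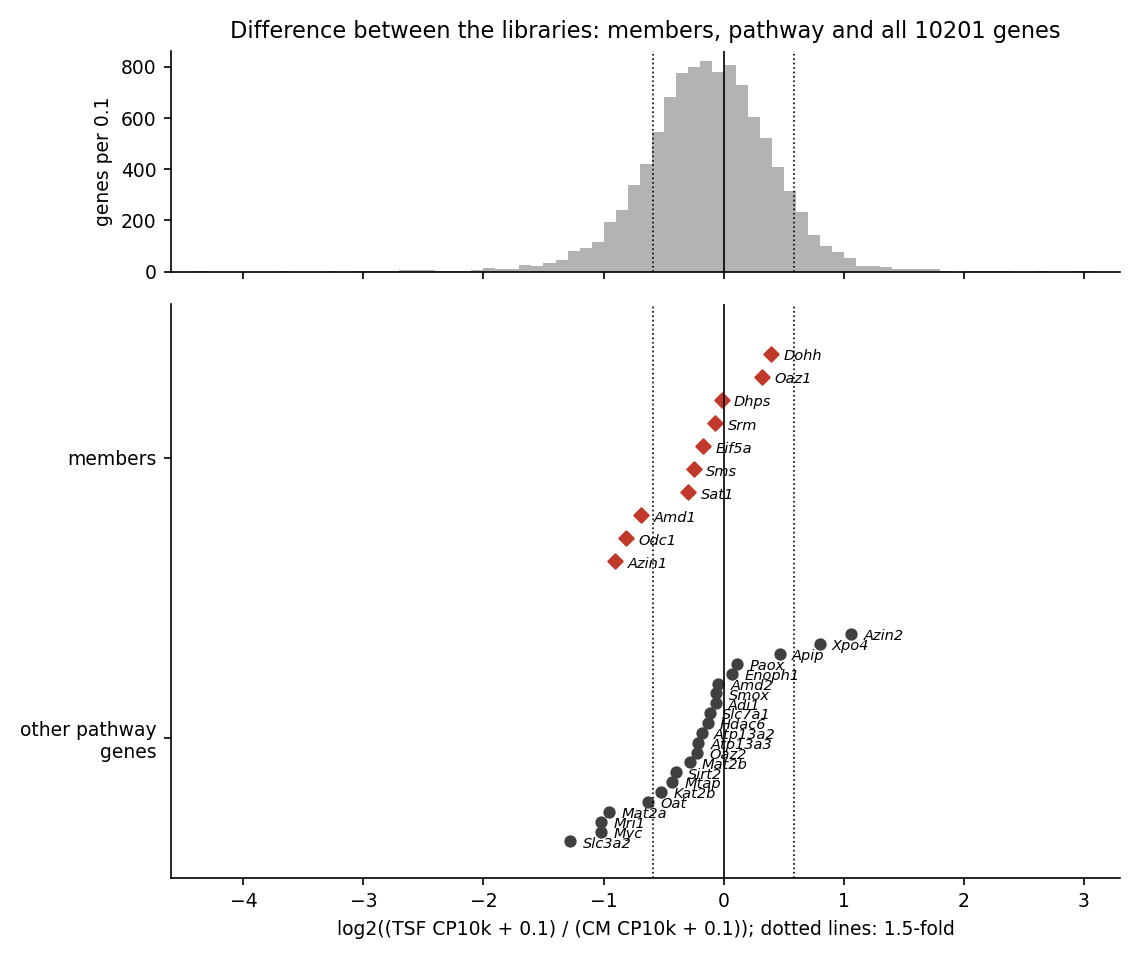
Upper panel: number of genes per 0.1 of log2((TSF CP10k + 0.1) / (CM CP10k + 0.1)) over the 10201 genes seen in at least 10% of cells. Lower panel: the same difference for the 10 members (diamonds) and the 22 other pathway genes (circles), with dotted lines at 1.5-fold, where Odc1, Amd1 and Azin1 lie to the left and Azin2 and Xpo4 to the right.

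How far single cells carry these means can be read from the depth. The median cancer cell held 26615 UMIs in TSF and 27679 UMIs in CM. The shallow ends were less alike, with 14 of 139 TSF cells (10.1%) and 8 of 29 CM cells (27.6%) under 10000 UMIs. The share of cells with a UMI depends on depth, so the observed shares compare cells of unlike depth. The CM library had 1 cell of 973 UMIs, while its next cell had 5962 UMIs. In that cell, 1 UMI adds 0.354 CP10k to the CM mean, and in the shallowest TSF cell, of 909 UMIs, it adds 0.0791 CP10k to the TSF mean. For 5 members (Dhps, Dohh, Srm, Sms and Sat1) the difference of the means was below the 0.354 CP10k that 1 UMI of the shallowest CM cell adds. That of Amd1, 0.361 CP10k, was just above it, and those of Azin1 (0.753) and Odc1 (2.25) were larger. Without values per cell, the means could not be computed without that cell.

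The cancer cells of the libraries were not of the same make-up. They fell in 2 fine clusters of the authors, and cluster 131 held 23 of 29 CM cells (79.3%, CI 60.3 to 92.0%) and 54 of 139 TSF cells (38.8%, CI 30.7 to 47.5%). By median its cells were deeper, at 33177 UMIs in CM and 34286 UMIs in TSF, than those of cluster 120, at 22090 and 23632 UMIs. The shallowest cell of cluster 131 had 5962 UMIs in CM and 11571 UMIs in TSF. None of the 10 members was among the 1000 variable genes marked in the authors' gene table. The part of this mix in the members' differences was not tested.

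**Figure D4:**
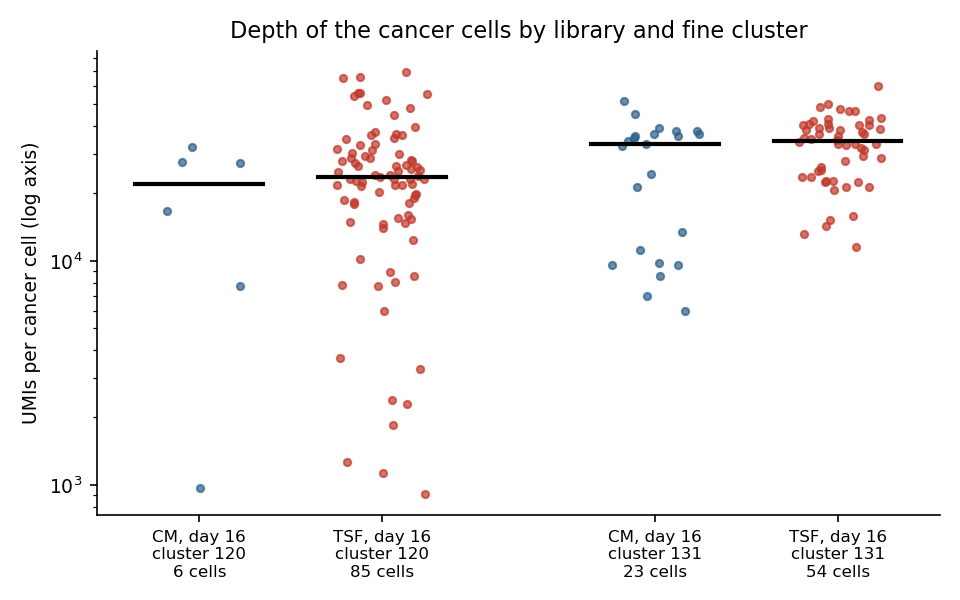
UMIs per cancer cell (log axis) for each cell of the CM and TSF libraries of day 16, split by the authors' fine cluster, with black bars at the medians. Cluster 131 holds 23 CM and 54 TSF cells, and the lowest CM cell, at 973 UMIs, lies in cluster 120.

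The label of cancer cells was checked against markers. All 8 epithelial carcinoma markers were seen in both libraries, with a summed level of 31.4 CP10k in TSF and 31.0 CP10k in CM, of which Krt8 (11.1 and 10.3) and Krt18 (15.8 and 18.3) made up most. Of the markers with lower values, Epcam, Cldn4, Cldn7 and Cdh1 were higher in TSF by more than 1.5-fold. Epcam had 1.28 CP10k in TSF and 0.195 CP10k in CM, Cldn4 0.432 and 0.0449, Cldn7 0.415 and 0.231, and Cdh1 0.132 and 0.0507. Krt7 and Krt19 were also higher in TSF in mean CP10k, but by less than 1.5-fold. The authors identified cancer cells at the clustering step by expression of the CD90.1 reporter. It had a UMI in 48 of 139 TSF cells (34.5%, CI 26.7 to 43.1%) and in 2 of 29 CM cells (6.90%, CI 0.846 to 22.8%). These intervals did not overlap. Markers of lung host cells other than Pdgfra and Dcn were seen in few or no cells, and in 5 of the 7 lists more markers were seen in TSF. All 5 neutrophil markers (1.07 CP10k summed) and all 4 leukocyte markers (0.0567 CP10k) were seen in TSF and none in CM. S100a9 had a UMI in 4 TSF cells and S100a8 in 2, and a marker this rare is more likely to be missed among 29 cells than among 139. Fibroblast markers summed to 1.04 CP10k in TSF and 0.498 CP10k in CM, with 4 and 2 of 4 seen and Col1a1 and Col1a2 at 0 in CM. Pdgfra, on that list, had 0.426 CP10k in TSF and 0.407 CP10k in CM, most of the CM sum. It had a UMI in 63 of 139 TSF cells (45.3%) and in 13 of 29 CM cells (44.8%). Dcn, the largest part of the TSF sum, had 0.526 CP10k in TSF and 0.0907 CP10k in CM, a log2 difference of 1.71. A UMI of Dcn was seen in 16 of 139 TSF cells (11.5%) and in 2 of 29 CM cells (6.90%). Endothelial markers summed to 0.186 and 0.0588 CP10k (4 and 2 of 4 seen, Kdr and Cldn5 at 0 in CM), lymphocyte markers to 0.0171 and 0.00958 CP10k (3 and 1 of 4, Nkg7 at 0 in both), and monocyte and macrophage markers to 0.0367 and 0.0200 CP10k (1 and 2 of 7, Lyz2, Csf1r and Adgre1 at 0 in both). Alveolar markers summed to 0.0591 and 0.363 CP10k (1 of 4 seen in each, Sftpc and Sftpb at 0 in both). Their part in the members' differences was not tested. The 2 libraries shared 31 cell barcodes over all cells and 0 among the cancer cells.

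The scaling of CP10k moves small differences across 0. Cytoplasmic ribosomal protein genes (Rpl and Rps) took 23.9% of CP10k in TSF and 18.6% in CM. When the values were rescaled without them, Dhps (0.06) and Srm (0.02) were above 0, and after centring on the median of all genes, a shift of 0.13, they stood at 0.11 and 0.05. Odc1, Amd1, Azin1, Sms and Eif5a were below 0 in every setting that could be computed for them, and Oaz1 was above 0 in every one. Odc1 was past 1.5-fold in all of them, with values between -1.79 and -0.66.

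**Figure D5:**
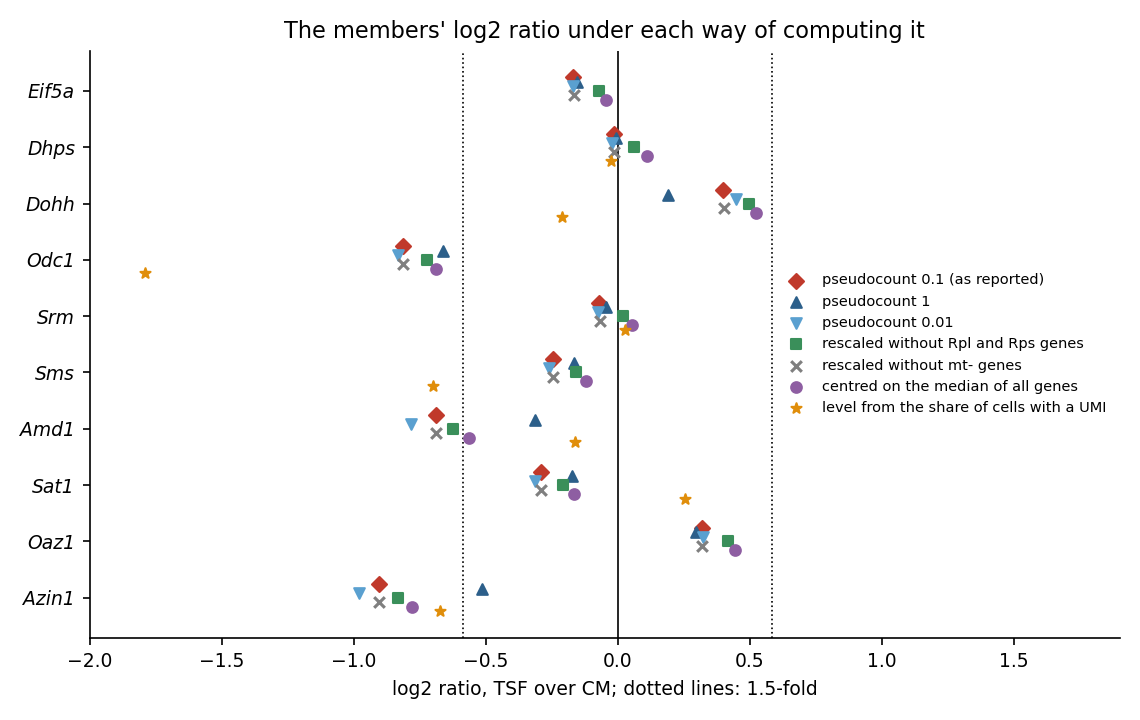
Log2 difference of each member (TSF over CM) as reported and under 6 other ways of computing it, with dotted lines at 1.5-fold. Odc1 lies left of the line in all of them (-1.79 to -0.66), while Dohh and Sat1 change side when the level is taken from the share of cells with a UMI, which could not be computed for Eif5a and Oaz1.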

How the data were processed

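Dissociated lungs were profiled by 5′ single-cell RNA sequencing. The authors mapped reads with Cell Ranger to mm10 (GRCm38.p6) plus the CD90.1 sequence, removed ambient RNA from the UMI counts with their own version of SoupX, filtered and clustered cells with Monocle3-alpha and named clusters by hand. Seurat 4.1.0 served for import and gene comparisons. Clusters of mixed cell types were dropped as multiplets, but per the methods no doublets were removed from the cancer cells, and none were called here. The deposited gene table gives, per library, the mean signal in CP10k, the count of cancer cells with a UMI and the percent of cells with one. A cell table deposited by the authors gives each cell's UMI count and percent of mitochondrial UMIs. Libraries held 3835 to 5580 cells and 13240822 to 21451787 UMIs. The cell table also held 2 libraries of no sample described here, which were not used. The authors' fold changes, p-values, rankings and enrichment results were not used.

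Ratios used a pseudocount of 0.1 CP10k and a limit of 1.5-fold over genes detected in 10% or more of the cells of TSF or CM. With 1 library per group no test was made. Shares carry exact Clopper-Pearson intervals (95%). Ratios of shares carry 95% intervals that are exact for a ratio of Poisson rates and too wide where most cells are positive. A zero allows up to 3 counts of the total. The level from the share is the number of UMIs per 10000 at which Poisson counting over the cells' UMI totals gives the observed share. It was planned as a description of shares, and its use for ratios over all genes was added after the data were seen. Scripts were tested on simulated data. The members in full, pathway genes past 1.5-fold or next to a member in the pathway, and the 3 genes nearest to Eif5a and Dohh are named. The members and lists were chosen with earlier results of these data known. Sequences came from GENCODE M21 and RefSeq tables of GRCm38. Computation was in Python 3.11.15 with pandas 2.3.3, numpy 2.4.6 and scipy 1.17.1, and figures were drawn with matplotlib 3.10.9.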

Additional observations from a re-analysis of the deposited data

How the results depend on the processing

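With a pseudocount of 1 CP10k, 1 member was lower by more than 1.5-fold (Odc1), and 0 other pathway genes were higher and 3 lower. At 2-fold 0 members were lower, and at the lower of the fold limits tried 1 was higher (Dohh). The share of all genes past those limits was not computed. Of the 10 members, 5 had the larger share of cells with a UMI in TSF, as did 49.1% of all genes. The mean CP10k in cells with a UMI was larger in TSF for 2 members, which was not counted for all genes. The level from the share, which 8 members have, was larger in TSF for 2 of them and for 36.3% of 9975 genes. The percent of all genes past 1.5-fold was 0.755% higher and 1.95% lower with a pseudocount of 1, 14.8% and 28.3% with 0.01, and 13.8% and 31.4% as a level from the share. Centring gave 11.7% higher. The members' median log2 difference was between -0.21 and -0.08 in all settings run. No paired analysis was possible because each group had 1 library, and for the same reason no library could be left out. Precision is limited by 29 CM cells, 8 of them under 10000 UMIs and 1 of these at 973 UMIs, and differences between mice are not covered. The cause of none of these shifts was tested beyond the construction of each setting.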
